A study of Mus musculus with 22 samples.

Results

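The comparison between adenoma/MIN (mammary intraepithelial neoplasia) and hyperplasia in PyMT mice covered 5 of the 22 samples of the series, 3 of adenoma/MIN taken at week 8 and 2 of hyperplasia taken at week 6. PyMT mice are F1 females heterozygous for the polyoma middle T antigen under the MMTV promoter on the FVB/N background, and every PyMT sample, hyperplasia included, was labelled with the disease state carcinoma. The controls were transgene-free FVB females of the same ages, 3 at each of weeks 6 and 8. DNA came from snap-frozen bulk mammary tissue or tumor, 1 mouse per sample, and the stage was assigned by age with histology. Age and stage rose together, so levels or changes in FVB of the same weeks are given beside the main PyMT results. Methylation was read by ERRBS (enhanced reduced representation bisulfite sequencing), in which an enzyme selects CpG-rich fragments and bisulfite converts unmethylated cytosines, so that the percent of reads still showing cytosine gives the methylation level of 1 position. Of 1586199 autosomal CpG positions seen in any sample, 1200990 were covered by at least 10 reads in all 5 PyMT samples. Positions on the opposite strands of a CpG were kept apart. Mean coverage was 60.2 to 79.2 reads and mitochondrial methylation, a check of conversion, was 0.179% to 0.276%.

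Middle T antigen is a viral oncoprotein that binds Src family kinases and feeds the PI3K and Ras pathways, and its expression in mammary epithelium drives lesions that pass from hyperplasia through adenoma/MIN to invasive carcinoma. CpG islands, CpG-dense stretches that hold most promoters, are usually unmethylated, whereas repeats and most intergenic CpGs are methylated. In tumors of many tissues islands of developmental genes tend to gain methylation and repeats and intergenic sequence tend to lose it. In bulk tissue a lower methylation level of a cell type and a smaller share of that cell type cannot be told apart.

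The positions called between the stages lay mostly in CpG-poor sequence, and the places where several neighboring CpGs moved together were short. Sequences of the regions with the largest changes, read from the GRCm38 (mm10) reference on the plus strand with 10 flanking bases on each side, show how few CpGs most of these places hold. CpGs are in capitals.
Itpka, gained, chr2:119744189-119744227: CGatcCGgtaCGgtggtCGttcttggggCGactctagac
Eml1, gained, chr12:108437872-108437932: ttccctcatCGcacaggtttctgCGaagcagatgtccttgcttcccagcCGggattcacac
Esrrg intron, gained, chr1:188180483-188180542: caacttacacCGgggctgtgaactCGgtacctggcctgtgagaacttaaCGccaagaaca
Unc5b, lost, chr10:60854622-60854692: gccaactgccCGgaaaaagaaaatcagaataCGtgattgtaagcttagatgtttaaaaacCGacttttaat
Il12a, lost, chr3:68691267-68691331: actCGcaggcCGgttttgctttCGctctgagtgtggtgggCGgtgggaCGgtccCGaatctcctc
Slc16a14, lost, chr1:85012293-85012334: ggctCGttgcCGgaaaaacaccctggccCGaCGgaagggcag
Efhb, lost, chr17:53273756-53273827: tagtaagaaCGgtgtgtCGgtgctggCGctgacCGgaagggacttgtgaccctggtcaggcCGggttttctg
Some promoters held many called positions in dense sequence, among them Ajap1 and Pigm. The stretch of the Ajap1 promoter window outside untranslated regions with the most gained positions (5 of its 21) and the stretch of Pigm with all 17 of its lost positions are shown for contrast, with 28 and 22 CpGs.
Ajap1, gained, chr4:153481748-153481947: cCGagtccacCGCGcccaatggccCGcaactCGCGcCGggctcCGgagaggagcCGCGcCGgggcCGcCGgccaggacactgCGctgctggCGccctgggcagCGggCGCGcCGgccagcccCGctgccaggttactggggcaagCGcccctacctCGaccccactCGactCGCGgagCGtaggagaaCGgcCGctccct
Pigm, lost, chr1:172377138-172377322: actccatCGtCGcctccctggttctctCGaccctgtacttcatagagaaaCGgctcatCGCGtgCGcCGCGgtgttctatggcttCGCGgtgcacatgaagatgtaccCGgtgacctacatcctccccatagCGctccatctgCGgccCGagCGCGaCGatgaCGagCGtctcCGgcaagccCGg

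Mean autosomal methylation did not separate the stages. It was 24.9% and 24.7% in the hyperplasia mice and 25.3%, 24.7% and 24.6% in the adenoma/MIN mice, so that the groups overlapped. The difference of the means was 0.0501 points (exact permutation test over 10 arrangements, two-sided, p = 1). The sign turned without hyperplasia replicate 2 or adenoma/MIN replicate 1, and summing reads over positions gave -2.65 points (exact permutation p = 0.4). With 3 samples against 2 the smallest p this test can give is 0.1. Over the 1141121 positions covered in all 11 PyMT and FVB samples of weeks 6 and 8, the mean moved by 0.0539 points in PyMT and by 0.0610 points in FVB, and the difference between these changes was -0.00713 points (permutation of week labels within each strain, 200 arrangements, two-sided, p = 0.995).

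At single positions 7897 gained and 7619 lost methylation in adenoma/MIN, which was 0.658% and 0.634% of positions tested. These differentially methylated cytosines (DMCs) passed a q-value of 0.01 in a logistic regression on reads and differed by 10 points or more when the reads of a group were pooled. The median size of a change was 19.8 points for gains and for losses, and the largest change was 61.2 points, a loss. That test takes reads and not mice as its unit. All adenoma/MIN mice lay on the same side of both hyperplasia mice at 6209 of the gained and 5979 of the lost positions (0.517% and 0.498% of positions tested). After a correction for the spread between mice 932 gained and 952 lost positions remained past the threshold, and limma, which fits each mouse as 1 value, called 0 positions in either direction at an adjusted p under 0.05 (13333 gained and 14236 lost at an unadjusted p under 0.05 and at least 10 points). Without hyperplasia replicate 2 there were 11939 gained and 11693 lost positions, against 4710 and 3642 without hyperplasia replicate 1. Without adenoma/MIN replicate 1 the losses rose to 9550, beside 7225 gains, and without adenoma/MIN replicate 2 they fell to 5153, beside 6744 gains.

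The same interval in FVB mice, 3 against 3, gave fewer calls than in PyMT, 3 against 2, with all mice in. That order turned in both directions without FVB week 8 replicate 3, and also without hyperplasia replicate 1. At the 1141121 shared positions 4742 gained and 4568 lost methylation in FVB (0.416% and 0.400%), against 7850 and 7588 in PyMT (0.688% and 0.665%). With groups kept from overlapping there were 2887 and 2813 in FVB (0.253% and 0.247%) against 6146 and 5935 in PyMT (0.539% and 0.520%). With the correction for spread there were 244 and 249 in FVB against 934 and 941 in PyMT. FVB week 8 replicate 2 stood apart from its group, and without it the FVB calls before correction were 1420 and 1637. Without FVB week 8 replicate 3 they were 8183 and 8134, above PyMT in both directions. Without replicate 1 of that week they were 8633 and 7539, above PyMT for gains only. Without FVB week 6 replicate 3 they were 7680 and 5569, both below PyMT. Without hyperplasia replicate 1 the PyMT calls were 4710 and 3642 (0.387% and 0.299% of 1217090 positions), below FVB in both directions. Counts with separate groups or with the correction were not rerun with a mouse left out. Of the positions gained in PyMT, 109 were also gained in FVB and 86 were lost there (1.39% and 1.10%), and the median FVB change at these positions was 0.0780 points. Of the positions lost in PyMT, 116 were lost and 94 gained in FVB.

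The share of gains among calls differed between kinds of sequence. Within 500 bp of a transcription start site (TSS) 750 positions gained and 368 lost, so gains were 67.1% of calls, and in CpG-dense sequence, defined from the reference by GC content and CpG frequency, 1049 gained and 404 lost (72.2% gains). Over all positions gains were 50.9% of calls. In intergenic sequence more than 50 kb from a TSS 1211 gained and 1824 lost (39.9% gains), and in repeat-masked sequence 611 gained and 1288 lost (32.2% gains). Coding exons beyond 2 kb from a TSS had 1303 gains and 880 losses, whereas introns had 2105 and 2201. The share of tested positions called was 0.199% within 500 bp of a TSS and 3.61% in far intergenic sequence, beside 1.29% overall. The excess of gains in dense sequence rested on hyperplasia replicate 2, without which gains were 44.5% of calls within 500 bp of a TSS and 48.1% in CpG-dense sequence. The excess of losses in repeats and far intergenic sequence was present with each mouse left out, at 23.2% to 41.8% and 30.8% to 46.6% gains. The classes also differed in starting level. In hyperplasia the mean was 1.75% within 500 bp of a TSS and 1.83% in CpG-dense sequence, against 56.4% in repeats and 63.0% in far intergenic sequence. Most positions of the first 2 classes could not fall by 10 points, and the part of starting level in these shares was not tested. Neighboring positions are not independent, and no test was made of these shares.

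**Figure D1:**
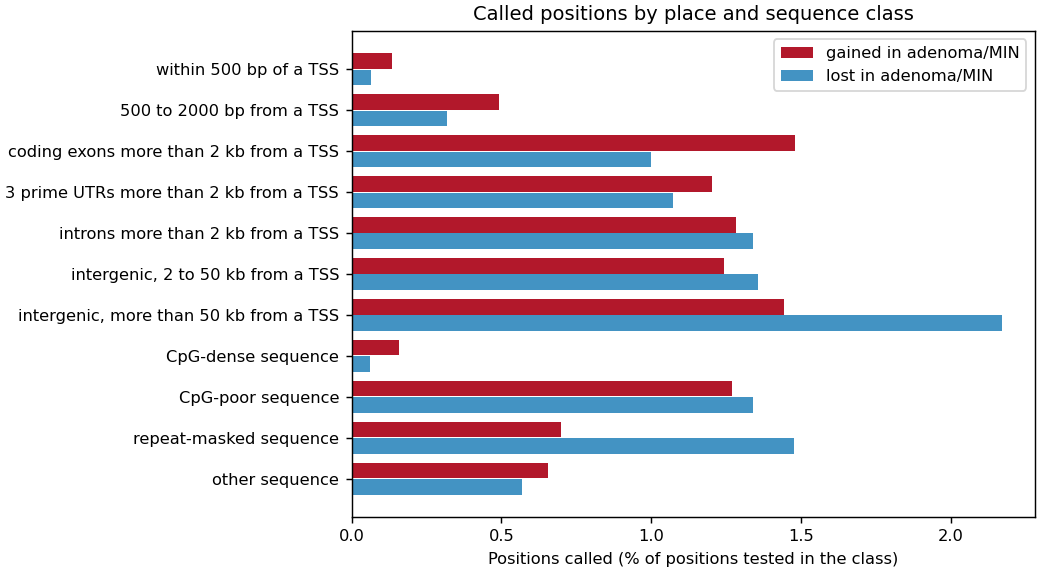
Percent of tested positions that gained (red) or lost (blue) methylation in adenoma/MIN, by distance from a TSS, gene annotation, CpG density and repeat masking; classes overlap between these schemes. With all 5 mice gains exceeded losses near TSSs and in coding exons, near TSSs not without hyperplasia replicate 2, and losses reached 2.17% of positions in intergenic sequence more than 50 kb from a TSS.

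The mean level of unmethylated sequence near TSSs moved a little in the same direction in every adenoma/MIN mouse. Within 500 bp of a TSS it was 1.78% and 1.71% in hyperplasia and 1.88%, 1.90% and 1.90% in adenoma/MIN, with no overlap between the groups and a difference of 0.148 points (exact permutation test, p = 0.1, the smallest it can give). In CpG-dense sequence it was 1.87% and 1.79% against 1.97%, 2.02% and 2.05%, and 500 to 2000 bp from a TSS it was 10.0% and 9.88% against 10.4%, 10.2% and 10.2%, again without overlap. Mitochondrial methylation of these mice ranged from 0.179% to 0.276%, and the part of incomplete conversion in such small differences was not tested. Far intergenic and repeat-masked sequence was lower in adenoma/MIN replicates 2 and 3 but not in replicate 1. In far intergenic sequence the hyperplasia mice were at 63.1% and 62.9% and the adenoma/MIN mice at 63.6%, 61.4% and 61.1% (difference -0.929 points, exact permutation test, p = 0.4). In repeats they were at 56.5% and 56.3% against 56.7%, 55.1% and 54.6%.

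Called positions also had different starting levels and neighborhoods. At positions with 10% to 20% methylation in FVB week 6 mice, 2.59% gained and 0.896% lost, whereas at 80% to 90% the shares were 1.56% and 2.32%. The median GC content of the surrounding 500 bp was 53.4% for gained, 51.2% for lost and 62.8% for all tested positions, with a median of 13, 10 and 36 CpGs. Repeat-masked bases made up 7.74% of gained, 16.9% of lost and 7.27% of all positions. Among CpG-poor positions beyond 2 kb from a TSS, an NF1 motif (TTGGCA, either strand) lay within 50 bp of 4.10% of gained, 5.35% of lost and 4.83% of all positions. A GATA motif (AGATAA) lay near 3.75%, 3.41% and 3.06%, an AP-1 motif (TGANTCA) near 2.17%, 2.42% and 2.28%, and an ETS motif (AGGAAG) near 12.1%, 12.5% and 12.5%. These shares describe letters in the reference and not binding.

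Lost positions stayed below the controls in the later carcinomas, whose samples had no part in choosing them. At the 7428 lost positions covered in all 22 samples the mean level was 75.6% and 70.2% in the hyperplasia mice and 50.5% to 56.3% in adenoma/MIN, which is how they were chosen. Early carcinoma (week 10) was at 58.7% ± 1.05 (SD, n = 3) and late carcinoma (week 12) at 56.3% ± 0.352 (SD, n = 2), against 68.8% ± 0.222 and 68.9% ± 0.128 in FVB of weeks 10 and 12 (SD, n = 3 each). The carcinoma minus FVB difference was -11.4 points (labels permuted within week, 200 arrangements, two-sided exact p = 0.005, the smallest it can give). Over all 1115690 positions it was -1.43 points with the same p in this test, so the p does not set the lost positions apart. Most of all positions are unmethylated in the controls and cannot fall, so positions of like level were also read, a choice made after the data were seen. At positions with 60% to 80% methylation in FVB week 6 mice, the carcinoma minus FVB difference was -16.7 points at the 1967 lost positions, -4.40 points at the 1629 gained positions and -8.08 points over all 77351. In the same order it was -8.90, 1.36 and -6.67 points at 40% to 60%, and -15.1, -4.90 and -6.35 points at 80% to 90%. A lower level in carcinoma than in FVB was thus not particular to lost positions. At the 7632 gained positions hyperplasia was at 39.3% and 47.0%, below FVB week 6 at 56.6%, and adenoma/MIN was at 63.0% ± 0.679 (SD, n = 3). Early and late carcinoma were at 59.2% and 59.96%, 2.01 points above FVB of the same weeks (same test, exact p = 0.005).

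**Figure D2:**
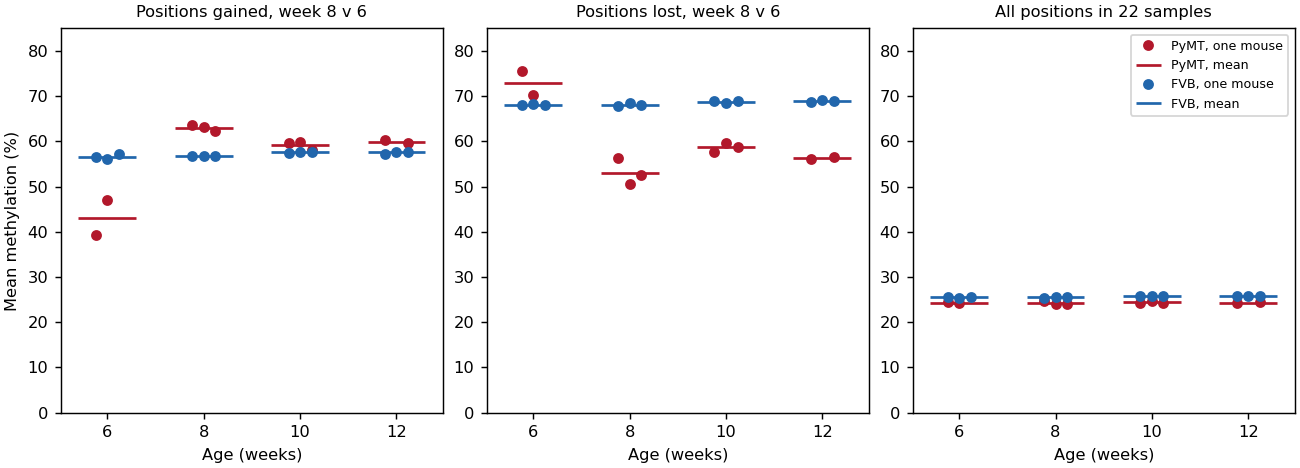
Mean methylation (percent) per mouse at positions gained, positions lost and all positions covered in 22 samples, against age in weeks, for PyMT (red) and FVB (blue); lines are group means. The week 6 and week 8 PyMT values in the first and second panels fix which positions are shown. At lost positions the 5 carcinomas lie 11.4 points below FVB on average and at gained positions 2.01 points above.

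No promoter passed the test across mice. Reads were summed over the 2 kb on each side of every TSS of a gene and 16065 promoters with at least 3 positions were tested with edgeR's quasi-likelihood test. At a Benjamini-Hochberg adjusted p under 0.05, 0 gained and 0 lost methylation (0% of promoters), and the smallest adjusted p was 0.888. At an unadjusted p under 0.05 there were 669 gained and 184 lost (4.16% and 1.15%), and limma gave 0 and 0 adjusted and 727 and 240 unadjusted. Promoter methylation averaged 10.8% in hyperplasia and 11.02% in adenoma/MIN, 61.8% of promoters were higher in adenoma/MIN, and the median difference was 0.0534 points. Mitochondrial methylation was 0.203% and 0.179% in the hyperplasia mice and 0.276%, 0.229% and 0.195% in the adenoma/MIN mice. The part of incomplete conversion in promoter differences of this size was not tested. Both groups were separate with adenoma/MIN higher at 2587 promoters and with adenoma/MIN lower at 1029 (16.1% and 6.41%). In FVB 0 promoters passed in either direction (191 gained and 471 lost at an unadjusted p under 0.05). For the difference between the PyMT and FVB changes 0 of 15986 passed, with 666 more positive and 127 more negative in PyMT at an unadjusted p under 0.05. A gain at single positions was present in 984 promoters (6.13%) and a loss in 718 (4.47%).

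Since none passed, the promoters described next were chosen after their values were seen, as those holding the most called positions, and their position-level levels are given without a test. Ajap1 (adherens junction-associated protein 1) held 21 gained positions between 415 bp upstream and 1072 bp downstream of its start sites on chromosome 4. Their mean level was 7.31% and 5.80% in hyperplasia and 18.3%, 29.5% and 24.6% in adenoma/MIN. FVB mice of weeks 6 and 8 were at 1.495% to 2.87%. At the same positions early carcinoma was at 30.8% and late carcinoma at 46.6%, while FVB of weeks 10 and 12 was at 2.42% and 2.77%. Over its whole window of 243 positions the Ajap1 promoter averaged 5.37% ± 1.01 (SD, n = 2) in hyperplasia and 12.1% ± 3.00 (SD, n = 3) in adenoma/MIN (edgeR adjusted p = 0.888).

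Gabra5, a subunit of the GABA-A receptor, held 19 gained positions with levels of 10.6% and 9.55% in hyperplasia and 23.1%, 26.1% and 35.1% in adenoma/MIN. Late carcinoma was at 45.5% and FVB week 8 at 3.54%. These positions lay 75 to 957 bp downstream of the Gabra5 start sites, and over the 2 kb upstream the difference was -0.0737 points. Mospd4, on chromosome 18, held 18 at 2.97% and 4.74% against 25%, 8.61% and 20.3%, with 5.09% in FVB week 8, and was at 13.3% and 16.2% in early and late carcinoma. Klf14, an imprinted Krüppel-like transcription factor gene, held 13, at 12.7% and 11.7% against 26.8%, 31.6% and 33.7%, with 6.77% in FVB week 8. The adenoma/MIN mice lay above both hyperplasia mice at each of these genes. Both hyperplasia mice lay above every FVB mouse of weeks 6 and 8 at Ajap1, Gabra5 and Klf14, and among them at Mospd4. Ric3, a chaperone of acetylcholine receptors, held 11 gained positions at 2.94% and 2.51% against 23.5%, 10.5% and 15.2%. Slc6a16, an orphan member of the neurotransmitter transporter family, differed from these in that its 14 positions were at 12.2% and 12.9% in hyperplasia, 30.7%, 30.5% and 30.3% in adenoma/MIN and 22.9% in FVB week 8, so that the hyperplasia mice lay below the controls.

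Losses at promoters were fewer. Pigm, a mannosyltransferase of GPI-anchor synthesis, held 17 lost positions 617 to 781 bp downstream of its start on chromosome 1. They were at 35.9% and 33.8% in hyperplasia and at 14.0%, 17.3% and 12.3% in adenoma/MIN, beside 19.7% to 30.4% in FVB mice of weeks 6 and 8. Hyperplasia was therefore above and adenoma/MIN below every control mouse, and early and late carcinoma were at 15.8% and 19.3%. The difference of the whole Pigm window, -7.49 points, was -0.427 points within 500 bp of the start and 0.304 points over the 2 kb upstream. B3gnt3, a glycosyltransferase that extends core O-glycans, held 6 lost positions at 42.4% and 48.4% against 22.2%, 13.6% and 22.4%, with 27.4% to 37.0% in the same FVB mice and 15.2% in early carcinoma.

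At other promoters 1 mouse made the call. Brd2, a BET bromodomain protein gene, had 14 gained positions of which adenoma/MIN replicate 1 carried nearly all the methylated reads: 339 of 1264 reads there (26.8%, Wilson 95% interval 24.5% to 29.3%) and 6 of 730 in replicate 2. The 944 and 708 reads of the hyperplasia mice and the 889 of adenoma/MIN replicate 3 held 0 methylated reads, which allows shares of up to 0.318%, 0.424% and 0.337%. Exosc2, a subunit of the RNA exosome, had 10 lost positions because hyperplasia replicate 1 had 190 methylated of 735 reads (25.9%, Wilson 95% interval 22.8% to 29.1%), against 0 of 889 in hyperplasia replicate 2. Without hyperplasia replicate 1 the Exosc2 promoter difference changed from -12.1 to 0.797 points. These intervals cover counting error only.

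**Figure D3:**
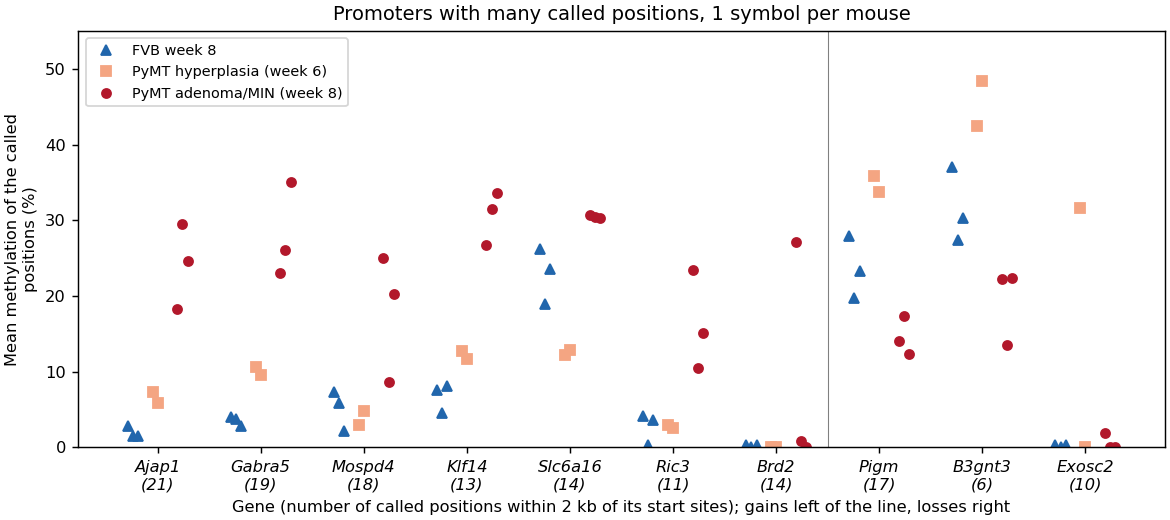
Mean methylation (percent) of the called positions within 2 kb of the start sites of 10 genes, 1 symbol per mouse, for FVB week 8 (triangles), hyperplasia (squares) and adenoma/MIN (circles), with the number of called positions in brackets. At Ajap1, Gabra5 and Klf14 the 3 groups are in ascending order without overlap, whereas Brd2 and Exosc2 rest on 1 mouse each.

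Promoters with the largest differences in mean level, also chosen after their values were seen and among those with separate groups, rested on 3 to 12 positions each. Rgs22, a regulator of G-protein signaling, was at 15.3% and 17.0% in hyperplasia and 34.2%, 35.1% and 45.1% in adenoma/MIN over 8 positions (edgeR adjusted p = 0.888), and in FVB at 4.28% and 8.85% at weeks 6 and 8. Sorbs2, an adaptor of actin and focal adhesions, was at 1.32% and 5.0% against 14.1%, 22.8% and 18.9% over 4 positions at a mean of only 17.65 reads. In mean, Pla2g12b was at 44.8% against 66.3%, Dyrk4 at 48.5% against 64.4% and Pde6c at 62.6% against 79.2%, none past the adjusted threshold. In FVB of weeks 6 and 8 Pla2g12b was at 62.6% and 61.4%, Dyrk4 at 20.8% and 21.3% and Pde6c at 83.2% and 84.1%. Hyperplasia was thus below the controls at Pla2g12b and Pde6c and above them at Dyrk4. On the side of losses Il12a, the p35 subunit of interleukin 12, was at 83.8% and 81.2% against 67.2%, 62.3% and 62.2% over 12 positions (edgeR adjusted p = 0.888), and in FVB at 66.7% and 74.2% at weeks 6 and 8. The Il12a difference of -18.6 points became -0.0708 points over the 5 positions covered by at least 20 reads in each mouse. Ifi47, an interferon-induced GTPase, was at 44.5% and 58.6% against 35.9%, 24.1% and 34.9% (-19.9 points, or -12.9 points without hyperplasia replicate 2), and Csf2rb, the common beta chain of the GM-CSF, interleukin 3 and interleukin 5 receptors, was at 71.04% and 57.4% against 50.1%, 48.5% and 49.0%. FVB week 8 mice were at 37.6%, 25.01% and 46.1% for Ifi47 and at 39.6%, 40.02% and 39.9% for Csf2rb.

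Gene lists were read beside all promoters, with counts of promoters whose groups were separate set against 16.1% higher and 6.41% lower over all 16065. Of 45 Wnt pathway promoters 14 were separate with adenoma/MIN higher and 0 lower, and the list median was 0.221 points against 0.0534 for all promoters, and -0.0170 and -0.0180 points in FVB. The smallest p belonged to Wnt4, a Wnt ligand of mammary branching, at 0.570% and 0.328% against 0.818%, 0.797% and 1.0% (edgeR adjusted p = 0.888). Sfrp2, a secreted Wnt antagonist, was at 0.935% against 1.58% in mean and Tcf7l1, a transcriptional repressor of the pathway, at 0.0564% against 0.166%. Both Tcf7l1 levels were below the mitochondrial range of 0.179% to 0.276%, where methylation and incomplete conversion cannot be told apart. A gained position was present in 12 of the 45, against 6.13% of all promoters, but Wnt promoters held a median of 87 tested positions and all promoters a median of 41. Fzd2, a Wnt receptor, had 6 gained positions and promoter levels of 31.8% and 21.2% in hyperplasia and 32.2%, 31.96% and 31.9% in adenoma/MIN, so its difference came from hyperplasia replicate 2.

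Promoters of developmental transcription factors gave counts of a similar size. Of 39 Hox promoters 14 were separate and higher and 0 lower (median 0.571 points), of 100 other homeobox and paired genes 34 and 2 (median 0.437 points), and of 51 Sox, T-box, Forkhead and GATA genes 18 and 1 (median 0.393 points). In FVB the medians were 0.136, 0.0744 and 0.0671 points. CpG-dense sequence as a whole was also higher in each adenoma/MIN mouse than in hyperplasia. Neither these counts nor that of the Wnt list were set against promoters of like CpG density or number of positions. Where windows of neighboring genes overlapped, their positions counted for each gene. Called positions were not one-sided: a gained position was present in 10, 17 and 13 of these promoters and a lost position in 10, 22 and 7. Over all promoters the shares were 6.13% and 4.47%, but the lists held a median of 51, 89.5 and 98 tested positions, against 41. Hoxd1 was at 3.91% and 4.66% against 6.23%, 7.94% and 6.88%. Hoxc13 was at 1.67% against 2.84% in mean and Hoxd11 at 2.62% against 3.80%. Lmx1b, a LIM homeobox gene of limb patterning, was at 1.55% and 1.10% against 2.19%, 2.99% and 2.68%, and Tlx2 at 0.928% against 1.77%, while Bsx was the other way at 6.89% against 4.56%. Eomes, a T-box factor, was at 0.768% and 0.808% against 1.36%, 1.41% and 1.91%. Foxc2 was at 2.08% against 3.34% and Foxd2 at 1.96% against 2.97%. The edgeR adjusted p was 0.888 at each gene named here.

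The means of these lists were higher still in late carcinoma, which was not part of the comparison, but they stood differently to the controls. At positions covered in all 22 samples the 100 other homeobox and paired genes averaged 2.96% and 2.60% in hyperplasia, 3.05%, 3.19% and 3.26% in adenoma/MIN, 3.45% to 3.91% in early carcinoma and 4.18% and 4.43% in late carcinoma. In FVB the group means were 2.61%, 2.66%, 2.73% and 2.72% at weeks 6, 8, 10 and 12. The Wnt list went from 3.45% and 2.80% in hyperplasia to 3.56%, 3.77% and 3.71% in adenoma/MIN and to 4.93% and 4.33% in late carcinoma, with FVB group means of 2.25% to 2.31%. The Sox, T-box, Forkhead and GATA list was at 3.61% and 3.57% in hyperplasia, below FVB week 6 at 3.85%, at 4.23%, 4.13% and 4.35% in adenoma/MIN beside 4.03% in FVB week 8, and at 5.51% and 5.25% in late carcinoma. For Hox genes adenoma/MIN was at 7.43%, 6.90% and 6.54%, overlapping hyperplasia at 6.63% and 6.17%. The Hox means of FVB were 7.72%, 8.17%, 8.73% and 8.36% at weeks 6, 8, 10 and 12, above the PyMT mean at each week (6.40%, 6.96%, 7.41% and 8.13%).

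**Figure D4:**
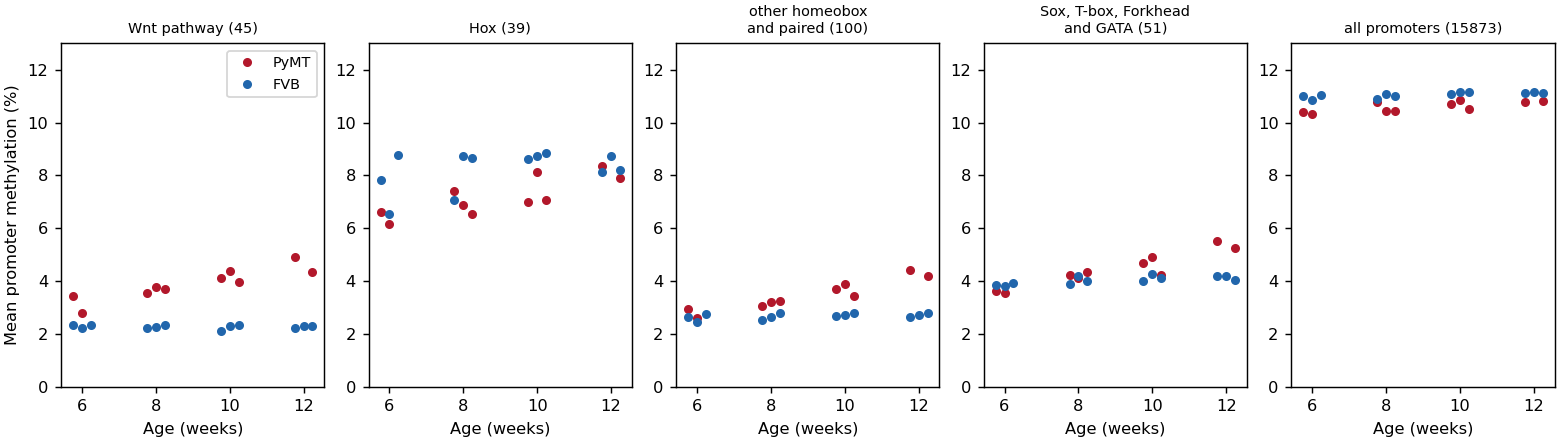
Mean promoter methylation (percent) per mouse against age in weeks for 4 gene lists and all promoters, PyMT in red and FVB in blue, with the number of promoters in brackets. The list of other homeobox and paired genes and the Wnt list were higher in all 3 adenoma/MIN mice than in hyperplasia, and higher again in late carcinoma. Hox genes overlapped between the 2 stages. All promoters were also higher in each adenoma/MIN mouse (10.8%, 10.46% and 10.46%) than in hyperplasia (10.42% and 10.33%), and stayed between 10.3% and 10.9% in PyMT.

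Other lists moved less or in both directions. Of 31 tumor suppressor genes methylated in human breast cancer 9 were separate and higher and 1 lower (median 0.122 points, in FVB -0.0313 points). Beside Ajap1 the members with the smallest p were Twist1, at 0.643% against 1.18%, and Brca1, at 0% in both hyperplasia mice and in adenoma/MIN replicate 1 and at 0.857% and 0.274% in the others. Of 30 genes of epithelial-mesenchymal transition (EMT) 6 were separate and higher and 2 lower (median 0.317 points, in FVB -0.0416 points). Mmp2, a gelatinase, was at 6.31% and 4.78% against 8.54%, 8.91% and 9.73%. Col4a1 and Col4a2 share a promoter, at 1.19% against 1.88%. Of 29 genes of middle T signaling and ErbB receptors 6 were higher and 1 lower (median 0.0815 points), with Sos1, a Ras exchange factor, at 0.0132% against 0.110%, Src at 0.0881% against 0.238% and the ErbB ligand Areg at 7.11% against 7.43%. Among 25 Polycomb and DNA methylation genes 3 were higher and 2 lower (median 0.0427 points). A gained position was present in 0 of them and a lost position in 2, against 6.13% and 4.47% of all promoters. E2f4 was at 6.18% against 5.35%, Tet2 at 0.169% against 0.131% and E2f1 at 0.0448% against 0.0875%. The levels of Sos1, Src, Tet2 and E2f1, and of Brca1 in adenoma/MIN replicate 3, lay within or below the mitochondrial range of 0.179% to 0.276%. At such levels methylation and incomplete conversion cannot be told apart.

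Lists that are methylated in normal tissue gave a check of scale. Of 17 germline genes 1 was separate and higher and 1 lower (median -0.0850 points), with Tdrd1 at 63.5% against 72.0%, Slc25a31 at 87.9% against 92.5% and Dazl at 39.9% against 39.6%. Of 12 imprinted genes with a methylated maternal promoter 2 were higher and 0 lower. Their median difference was 1.98 points, and 0.596 points in FVB. Kcnq1ot1 at 41.2% and 30.6% against 44.1%, 41.4% and 43.4% and Snrpn at 48.0% and 47.9% against 41.1%, 48.6% and 42.5% went opposite ways. Zim1 was near 0 in both stages (0.0680% against 0.627%), so the window measured here is not a methylated one. The 2 lists that the study drew from these same samples, and which are therefore not independent in direction, had 11 of 40 (genes at all stages) and 13 of 32 (genes at late carcinoma only) separate and higher, with medians of 0.458 and 0.618 points. Ucn, a stress peptide of the CRF family, was at 3.35% against 5.94% in the first and Nkx2-1, a homeobox factor of lung and thyroid, at 1.66% against 3.47% in the second. Slc1a2, a glutamate transporter, was at 1.77% against 2.58%, Elmod1 at 1.27% against 2.45% and Barhl2 at 1.36% against 2.08%.

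Promoters of cell type marker genes gave the tissue's background. The luminal epithelial list averaged 5.03% and 5.66% in hyperplasia and 5.39%, 7.05% and 5.13% in adenoma/MIN, with groups overlapping, and at positions shared by 22 samples 5.10% and 5.81% beside 11.9% and 10.97% in FVB of weeks 6 and 8. Its markers Cldn7 (0.981% against 1.62%), Krt19 (0.630% against 1.55%) and Cldn3 (1.27% against 1.42%) were near 0 in both stages. The basal list of 7 promoters averaged 24.1% and 23.6% against 26.8%, 26.2% and 27.2%, without overlap, with 3 separate and higher and 1 lower. In FVB this list was at 23.4% and 25.7% at weeks 6 and 8, so that its mean was also higher at the later week without the transgene, with the mice of the weeks overlapping. In that list Lmod1, a smooth muscle actin nucleator, was at 37.4% and 42.2% against 51.6%, 52.3% and 47.3%, Cnn1 at 14.3% against 11.7% and Oxtr at 2.93% against 3.50%. Adipocyte (10 promoters, median -0.215 points), endothelial (12, median 0.455 points) and alveolar (6, median -0.172 points) lists overlapped between the stages in their mean. The adipocyte members Car3 (6.14% against 9.89%) and Aqp7 (71.01% against 64.1%) differed in sign, and so did the endothelial members Robo4 (74.3% against 67.1%) and Sox18 (2.12% against 4.04%). In the alveolar list 4 of 6 promoters were lower in adenoma/MIN, and Wap, a whey protein gene, was the highest of the differences at 47.6% against 51.8%. The leukocyte list had 4 measured promoters at 61.7% and 56.3% against 56.2%, 57.5% and 55.6% (median -1.23 points), with 0 separate and higher and 1 lower. Of these 2 held a lost and 0 a gained position, against 4.47% and 6.13% of all promoters, and Adgre1 had the highest difference at 67.1% against 70.4%. The part of cell composition in the position-level calls was not tested.

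Regions where neighboring CpGs moved together numbered 77 gained and 62 lost (0.0879% and 0.0708% of 87564 runs of 3 or more tested positions lying no more than 100 bp apart). A region had a mean difference of at least 20 points and at least 1 DMC of at least 25 points. Its groups were separate in 57 of the gained and 55 of the lost regions. Regions were chosen by a large difference between these same mice, which favors separate groups, and the share among all runs was not counted. They were short, with a median of 4 and 3 positions. Of the gained regions 14 lay within 2 kb of a TSS, 11 in coding exons, 20 in introns and 28 in intergenic sequence, and of the lost regions 8, 5, 18 and 31. Repeats made up most of 0 gained and 7 lost regions. The counts were higher whichever mouse was left out. They were 446 gained and 279 lost without hyperplasia replicate 2, 157 lost without adenoma/MIN replicate 1 and 122 gained without adenoma/MIN replicate 3, and at a coverage of at least 20 there were 54 and 32. In weeks 10 and 12 the median region level was 61.5% and 61.3% in PyMT against 60.3% and 58.8% in FVB at gained regions, and 51.3% and 48.0% against 65.7% and 67.1% at lost regions.

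The named regions are 4 of the 5 largest gains and the 5 largest losses with separate groups, ranked by the mean over positions of the difference in pooled reads. The Itpka region, 1871 bp downstream of the start of this inositol trisphosphate 3-kinase gene, was at 38.9% and 53.3% in hyperplasia and 55.1%, 88.2% and 85.7% in adenoma/MIN at a mean of 15.5 reads. Early and late carcinoma were at 76.9% and 87.8% and FVB week 8 at 31.6%. The Eml1 region, in an intron of this microtubule-binding protein gene, was at 26.9% and 54.2% against 60.4%, 60.6% and 73.1%, with 59.6% and 57.9% in FVB of weeks 6 and 8. An intronic region of Esrrg, an orphan nuclear receptor gene, was at 37.3% and 32.8% against 78.9%, 61.6% and 57.5%, with 45.4% in FVB week 8 and 62.9% in late carcinoma. An intergenic region nearest to 4930563I02Rik was at 28.1% and 49.7% against 59.4%, 77.2% and 73.8%, with 65.9% and 69.7% in FVB. At Eml1 and 4930563I02Rik the hyperplasia mean was thus below and the adenoma/MIN mean above that of the controls of the same week.

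Among the losses, the region 8462 bp upstream of Ctdp1, an RNA polymerase II phosphatase gene, was at 64.2% and 63.8% in hyperplasia and 21.3%, 36.3% and 33.8% in adenoma/MIN. FVB week 8 mice were at 24.9% there, so adenoma/MIN was nearer to the controls than hyperplasia was. The region near Unc5b, a netrin receptor gene, lay wholly in a repeat and was at 75.8% and 72.9% against 37.3%, 44.4% and 41.2%, with 40.4% and 42.4% in early and late carcinoma. The Il12a region, at the promoter shown above, was at 92.8% and 98.6% against 66%, 55.7% and 65.4% at a mean of 15.4 reads. FVB week 6 and week 8 were at 66.2% and 88.3%. The regions nearest to Slc16a14 and Efhb were at 68.2% and 73.9% against 49.8%, 33.0% and 34.9% and at 59.4% and 63.9% against 31.0%, 36.7% and 30.5%. Both were at 20.5% and 25.6% in late carcinoma and at 94.8% and 83.1% in FVB week 8, so that each PyMT stage lay below the controls. The Slc16a14 sequence printed above occurs 3 times in the reference, so reads there may come from several copies, and the Efhb sequence occurs 1 time. Near copies were not searched.

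**Figure D5:**
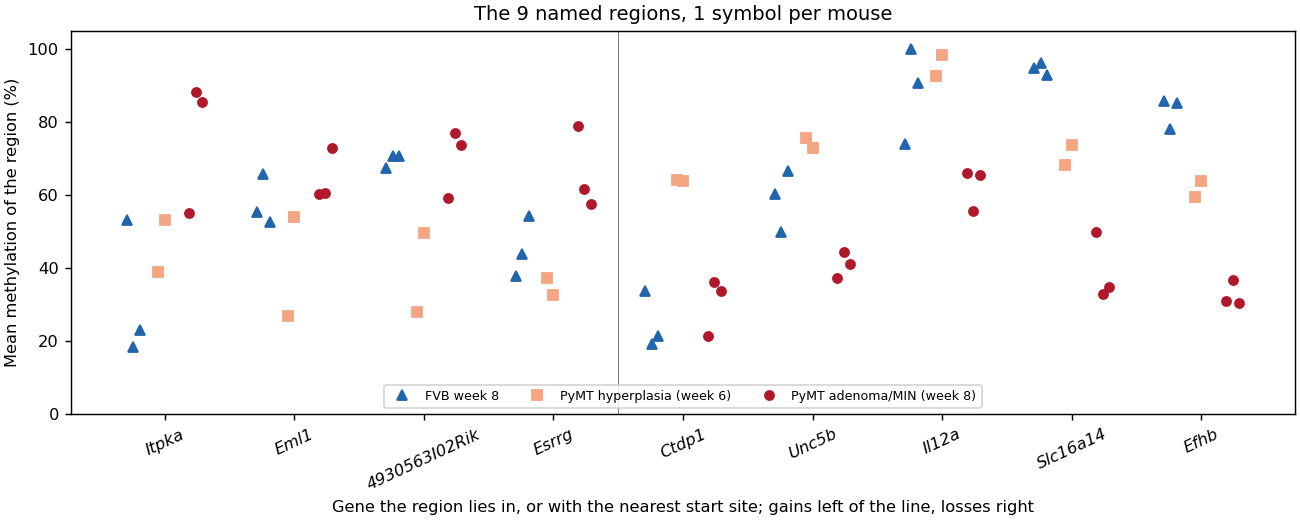
Mean methylation (percent) of the 9 named regions, 1 symbol per mouse, for FVB week 8 (triangles), hyperplasia (squares) and adenoma/MIN (circles), with gains left of the line and losses right. The stages are separate by the choice of regions, and the FVB mice lie between, above or below them from region to region.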

How the data were processed

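ERRBS was run by the authors on mammary DNA and reads were aligned with Bismark to mm10, per the submitters' processing notes. For each cytosine of a CpG the authors deposited the count of reads (coverage, at least 10) and the percent of reads called methylated and unmethylated. Whole reads of each kind were taken as coverage times percent, rounded. The authors removed outliers, and 2 hyperplasia mice were analysed here. Chromosomes X and Y were not used.

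Positions were tested by the likelihood ratio of a logistic regression with Benjamini-Hochberg q-values at the thresholds the study used with methylKit, whose own q-value method was not used here, with a McCullagh-Nelder correction, a limma fit and strata by replicate number as alternatives. Promoters (curated RefSeq transcripts, GRCm38.p6) were tested with edgeR 4.0.16 on methylated and unmethylated reads and limma 3.58.1 (R 4.3.3). CpG-dense sequence had at least 55% GC and an observed to expected CpG ratio of at least 0.65 in 500 bp. Regions stand in for those of the study's eDMR tool. Single values were compared by exact permutation. The logistic, corrected and stratified position tests and the edgeR promoter test between stages were tried on simulated reads. There the promoter test missed more of the smaller than of the larger changes made. The limma fits, the promoter test between strains and the permutation tests were not tried in this way. The members and the gene lists were chosen with earlier results of these data known. Promoters were to be named among those past the threshold, of which there were none. Regions named were the 5 largest gains and 5 largest losses with separate groups, and list members the 3 with the smallest promoter p, where predicted genes could be left unnamed. Of these, 1 gained region and 1 list member are not reported here.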

Additional observations from a re-analysis of the deposited data

Results flagged for a closer look

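The change from week 6 to week 8 within 500 bp of a TSS differed between the strains by 0.171 points, where PyMT rose by 0.146 points and FVB dropped by 0.0249 points (permutation of week labels within strain, 200 arrangements, two-sided p = 0.04). It was set apart because the difference itself was tested. Over the 8 sequence classes compared in this way the adjusted p was 0.24, so it failed the correction for multiple tests. The PyMT mice were at 1.74% and 1.67% and then 1.84%, 1.85% and 1.86%, and the FVB mice ranged from 1.63% to 1.79% at both weeks together. Mitochondrial methylation was 0.179% to 0.276% in these PyMT mice. In FVB it was 0.224%, 0.172% and 0.239% at week 6 and 0.209%, 0.216% and 0.177% at week 8. The part of incomplete conversion in the strain difference was not tested.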

How the results depend on the processing

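The counts of DMCs kept within 1.5 times of 7897 gained and 7619 lost at a coverage of 20, with extreme coverage left out, with strands merged, with groups kept from overlapping, and at positions covered in all 22 or in 11 samples (for the latter 6146 and 5935 with separate groups). They moved to 1974 and 1764 at a difference of at least 25 points, to 932 and 952 with the overdispersion correction (934 and 941 at positions covered in 11 samples) and to 0 and 0 with limma. With a replicate block the counts were 5839 and 4838, and no promoter was called with or without it. Replicate numbers are shared by 2 pairs only and deviations from the group means correlated at -0.0137 and 0.00241 in these pairs, so the numbers were not taken to pair mice. Leaving out 1 mouse gave 4710 to 11939 gained and 3642 to 11693 lost, and in FVB 1420 to 8633 and 1637 to 8134. FVB counts were 244 and 249 with the overdispersion correction, 3136 and 3045 with a replicate block and 2887 and 2813 with separate groups. Alternatives at positions covered in 11 samples and with separate FVB groups were added after seeing the data. Gains as a share of DMCs ranged from 44.5% to 74% within 500 bp of a TSS and from 48.1% to 79.2% in CpG-dense sequence with 1 mouse left out, the lowest without hyperplasia replicate 2, and were 73.2% and 80.95% with the overdispersion correction, an alternative added after seeing the data.

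Promoter calls were 0 in each alternative run, and unadjusted counts ranged from 477 to 739 gained and 153 to 376 lost when 1 mouse was left out. Regions numbered 571 gained and 501 lost at a mean difference of 10 points, 25 and 16 with at least 5 positions and 54 and 32 at a coverage of 20, and 84 to 446 and 78 to 279 with 1 mouse left out. The mean methylation difference turned to -2.65 points (exact permutation p = 0.4) when reads were summed over positions, and ranged from -0.188 to 0.169 points with 1 mouse left out. The difference between the PyMT and FVB mean changes ranged from -0.234 to 0.109 points in the same way. Of 13 promoters followed, 142 of 145 alternative values kept their sign, but 16 at 7 promoters moved by over 1.5 times. With 2 kb upstream only, Gabra5 was at -0.0737 and Pigm at 0.304 points (2.3 and -0.427 points within 500 bp, from 6.24 and -7.49). At a coverage of 20 Il12a was at -0.0708 and Ifi47 at -12.8 points, and Exosc2 ranged from -24.9 points to 0.797 points with 1 mouse left out, the latter without hyperplasia replicate 1. The causes were not tested. Age and stage cannot be told apart within PyMT, and read-level q-values leave out the spread between mice.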
